A study of Mus musculus with 24 samples.

Results

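Low oxygen was applied to 2 kinds of mouse neural stem cell culture with low levels of neuron genes, and the question was which parts of the expression response they shared and which parts differed. The comparison is the oxygen response of midbrain cultures at 13 d, 3% O2 minus 21% O2, less the same response of cortex cultures labelled 48 h. It was computed for each probe set with a gene symbol, 23410 of the 28856 in the table, and used 12 of the 24 arrays of the series, 3 in each of 4 groups. The cells were primary cultures from the cortex or the mesencephalon (midbrain) of C57Bl/6 mouse fetuses at embryonic day 14, grown in expansion medium. The 21% O2 groups were the untreated controls, and the 3% O2 groups were held in a gas mixture of nitrogen, carbon dioxide and oxygen. The labels name no genetic change and no other agent in any group.

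What limits these groups as a model is also given by the labels. RNA came from whole wells of mixed primary cells, so that here and below fewer cells of a type and less RNA per cell cannot be told apart. Separate cultures or animals are not recorded for the arrays of a group, so the p-values reflect array-to-array spread that may be only technical. The midbrain 13 d arrays form array set 1 and the cortex arrays array set 2. Levels of the 2 regions were not compared by a test, because region, culture time and array set cannot be told apart, and the difference of responses removes a set effect only where it is the same at 3% and 21% O2. Below, midbrain and cortex, or the regions, stand for the 2 cultures as they are, which differ in labelled culture time (13 d and 48 h) as well.

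Cells read oxygen through prolyl hydroxylases that mark the alpha subunits of the hypoxia-inducible factor (HIF) for breakdown. When oxygen falls, HIF accumulates and switches on genes of glucose uptake, glycolysis, blood vessel growth and iron handling. Another route, the integrated stress response, raises the transcription factor ATF4, which drives amino acid transporters and synthesis enzymes. In neural stem cells Notch signalling acts through the HES and HEY repressors to hold back differentiation, and physiological oxygen in the fetal brain is well below that of room air.

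Array medians over the tested probe sets lay between 7.66 and 7.78 on the log2 scale in all 24 arrays, and precision is limited by having 3 arrays per group. At 21% O2 the cortex mean profile correlated at 0.990 with midbrain 13 d and at 0.930 with midbrain 48 h, across probe sets. The cortex profile was thus closer to the midbrain culture of the other labelled time. The cortex culture time is taken from the label, and whether that label is right was not tested. Averaged over 31 neuron genes, the log2 level at 21% O2 was 7.77 ± 0.03 in midbrain 13 d and 8.43 ± 0.14 in cortex (SD, n = 3). Cultures of both regions had high Sox2, a stem cell transcription factor, at 12.11 to 12.38 over the 12 arrays.

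Both number 1 arrays of cortex stood apart from their groups, as did 1 midbrain array, in genes singled out after their values were seen. Cortex 3% O2 replicate 1 had the forebrain gene Emx2 at 6.86, against 9.07 and 8.87 in the other replicates, and the midbrain gene En2 at 9.13, against 7.26 and 7.36. Midbrain 13 d arrays had Emx2 at 6.29 to 6.95 and En2 at 8.82 to 9.36, so this cortex array lay with midbrain for Emx2 and En2. Cortex 21% O2 replicate 1 kept Emx2 at 9.21 but had the astrocyte gene Gfap at 6.06, against 8.14 and 8.01, and the pericyte receptor Pdgfrb at 6.70, against 8.99 and 8.53. It also correlated more closely with the cortex mean at 3% O2 (0.9925) than with the other 21% O2 arrays (0.9897). Midbrain 3% O2 replicate 2 had Xist, the transcript of the inactive X chromosome, at 6.33, against 11.12 and 11.18. Values without these arrays are given beside many of the results that rest on them.

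**Figure D1:**
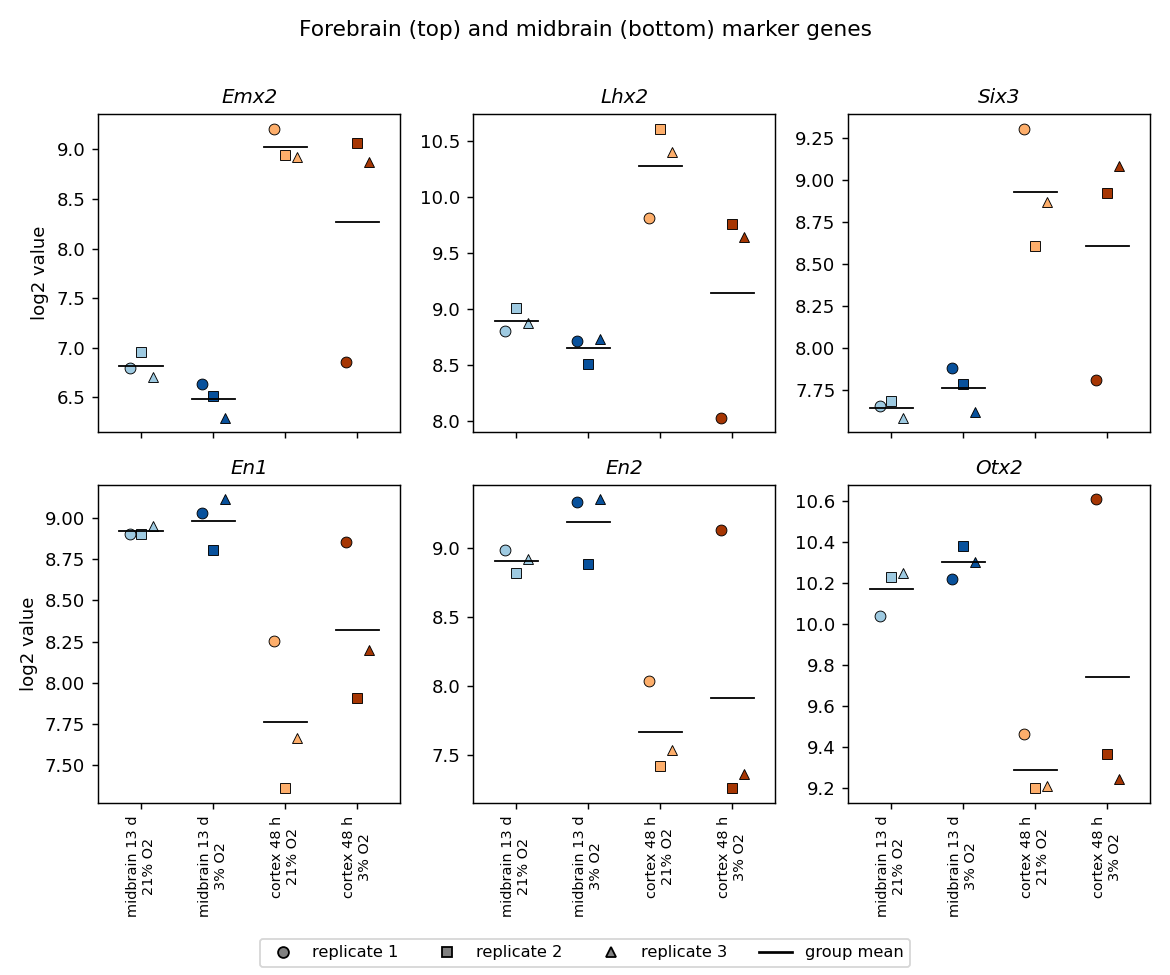
Log2 level (y axis) of the forebrain genes Emx2, Lhx2 and Six3 and the midbrain genes En1, En2 and Otx2 in each of the 12 arrays, 1 point per array with its replicate number, by region and oxygen level. Cortex 3% O2 replicate 1 lies away from replicates 2 and 3, with Emx2 at 6.86 and Otx2 at 10.61 against 9.37 and 9.24.

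Low oxygen changed many genes in both cultures, and the direction was mostly shared where both changed. In midbrain 13 d 2614 probe sets rose (11.2%) and 2970 fell (12.7%), by limma with an adjusted p under 0.05 over the 23410 tested. In cortex 1462 rose (6.25%) and 1424 fell (6.08%). The probe sets that rose in both numbered 856 (3.66% of those tested), which is 32.7% of the midbrain rises and 58.5% of the cortex rises. Those that fell in both numbered 827 (3.53%), 27.8% of the midbrain falls and 58.1% of the cortex falls. Only 66 (0.282%) passed in opposite directions, 39 with a rise in midbrain and 27 with a rise in cortex. Across all tested probe sets, which are not independent replicates, the responses correlated at r = 0.61 (Spearman 0.44) and 61.8% had the same sign. All calls and standard errors use 1 error estimate shared by the cultures. With each region's 6 arrays fitted alone, 6700 probe sets passed in midbrain and 311 in cortex. The shared rises were then 133 and the shared falls 114.

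The difference itself passed the threshold at 1540 probe sets (6.58%), of which 740 (3.16%) had the more positive response in midbrain and 800 (3.42%) the more negative. Most of these were called in 1 culture alone. Of the 740, 485 rose in midbrain only and 110 fell in cortex only, while 39 ran in opposite directions, 81 moved the same way in both by different amounts and 25 passed in neither. Of the 800, 545 fell in midbrain only and 98 rose in cortex only, and 27, 109 and 21 fell into the other classes. Of the 856 shared rises the difference passed at 80 with the larger rise in midbrain and at 9 with the larger rise in cortex. Of the 827 shared falls it passed at 100 with the larger fall in midbrain and at 1 with the larger fall in cortex. The difference had a median of -0.02 over all tested probe sets and a median standard error of 0.11, and 107 called differences exceeded 1 log2 unit.

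These counts depended on the number 1 arrays of cortex. Without both, the difference passed at 2906 probe sets, 1610 more positive and 1296 more negative in midbrain, and 210 ran in opposite directions. Of the calls made with all arrays, 686 of the 740 and 687 of the 800 were kept, as were 662 of the 856 shared rises and 674 of the 827 shared falls. The labels do not say that replicate numbers pair the arrays. A replicate block, which assumes such a pairing in every culture, gave 113 probe sets in opposite directions in place of 66. Passes with the block below belong to that alternative setting and are not calls of the fit used above.

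**Figure D2:**
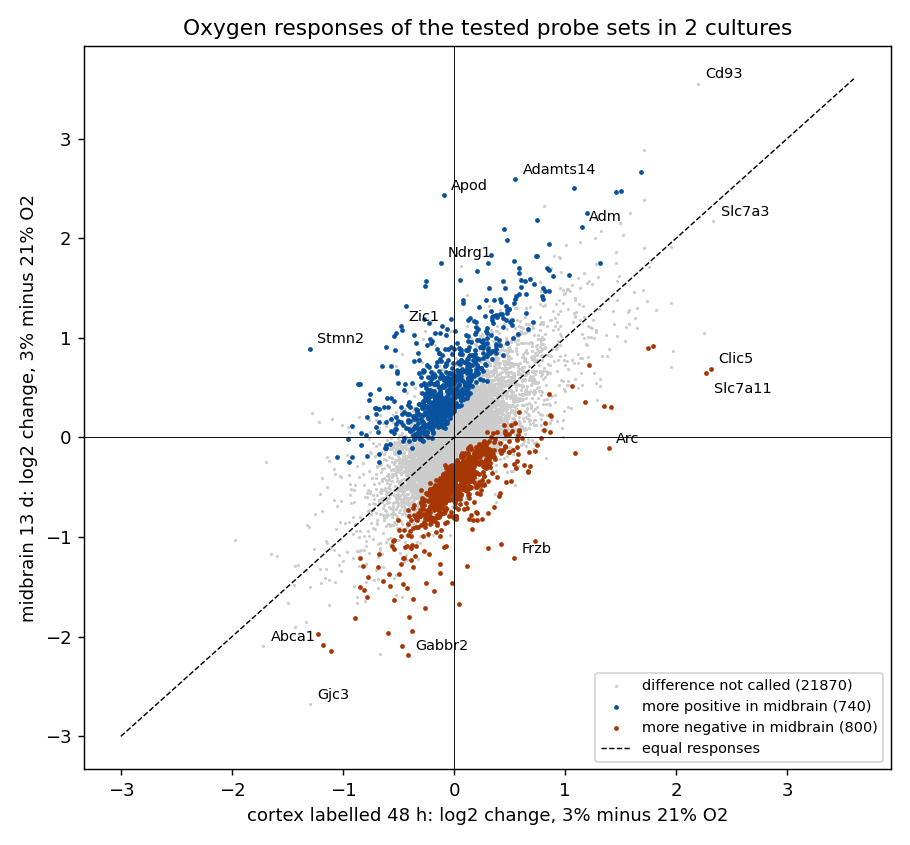
Oxygen response (3% minus 21% O2, log2) of each tested probe set in cortex labelled 48 h (x axis) and midbrain 13 d (y axis), with colours for probe sets whose difference of responses passed and names for some genes. Most of the coloured points lie near 1 of the axes, and Stmn2, at -1.30 and 0.89, is among the few in a corner of opposite signs.

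Amino acid and stress genes driven by ATF4 rose in both cultures by like amounts. Of 34 measured members 25 rose and 1 fell in midbrain and 22 rose and 0 fell in cortex, and all 22 were among the 25. The medians were 0.51 in midbrain and 0.59 in cortex, against -0.01 and 0.00 over all tested probe sets. The difference passed at 2 members only, 1 in each direction, with a median of 0.00 after rounding. Without both number 1 arrays of cortex the counts were 25 up and 1 down in midbrain and 22 up and 1 down in cortex.

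Slc7a3, a transporter of arginine and lysine, was also among the 8 largest shared rises of all genes. It read 7.07, 7.49 and 7.33 in the midbrain arrays at 21% O2 and 9.08, 10.25 and 9.07 at 3% O2. The cortex arrays read 8.15, 7.57 and 7.79 at 21% O2 and 10.60, 10.04 and 9.87 at 3% O2. All 3% O2 arrays lay above all 21% O2 arrays of their region. The rises were 2.17 ± 0.25 (log2, SE, adjusted p = 2.0e-06) and 2.34 ± 0.25 (adjusted p = 4.4e-06), and their difference of -0.17 had a 95% interval from -0.89 to 0.56.

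Chac1, an ATF4 target that breaks down glutathione, followed the same course. In midbrain its values were 7.66, 7.47 and 7.57 at 21% O2 and 8.41, 9.20 and 8.27 at 3% O2. In cortex they were 8.42, 8.36 and 8.38, and 9.97, 9.49 and 9.54. The groups did not overlap in either region, and the rises of 1.06 ± 0.16 and 1.28 ± 0.16 differed by -0.22 (95% interval -0.69 to 0.25, adjusted p = 0.68). Midbrain 3% O2 replicate 2 was the highest of its group for Chac1 and Slc7a3, and without it the difference for Chac1 passed, at -0.51 (adjusted p = 0.024). Atf4 itself rose by 0.47 ± 0.08 in midbrain and by 0.48 ± 0.08 in cortex, a difference of -0.01 with an interval from -0.25 to 0.24. Trib3, a pseudokinase induced by ATF4, rose by 0.47 ± 0.13 and 0.77 ± 0.13, the first at an adjusted p of 0.086 without midbrain 3% O2 replicate 2. Ddit3, a transcription factor of prolonged stress, rose in midbrain (0.39 ± 0.09) and did not pass in cortex (0.19 ± 0.09), with no call for the difference (adjusted p = 0.43).

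The list mean moved with the same arrays. It was 9.06, 9.11 and 9.11 in midbrain at 21% O2 and 9.61, 9.89 and 9.60 at 3% O2, and 9.44, 9.33 and 9.37 against 10.23, 9.94 and 9.90 in cortex. Midbrain replicate 2 and cortex replicate 1 were each the highest of their 3% O2 group. Their part in the result was not tested beyond leaving them out. Without midbrain 3% O2 replicate 2, 24 members rose in midbrain and 23 in cortex, and the difference was called more positive at 1 and more negative at 5.

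A few related transporters and enzymes set the regions apart. Slc7a11, the cystine importer that ATF4 and the oxidative stress factor NRF2 induce and that is counted below with the NRF2 targets, read 8.14, 8.12 and 8.19 in midbrain at 21% O2 and 8.53, 9.33 and 8.53 at 3% O2. Cortex values were 8.27, 8.12 and 8.26, and 10.78, 10.28 and 10.41. It started from the same range in both regions, and the cortex arrays at 3% O2 lay above every midbrain array. The rise of 2.27 ± 0.17 in cortex exceeded that of 0.65 ± 0.17 in midbrain (difference -1.63 ± 0.23, adjusted p = 0.00035), and without midbrain 3% O2 replicate 2 the midbrain value was 0.38. Within the list Slc38a2, a transporter of small neutral amino acids, differed the other way, with 0.79 ± 0.09 in midbrain and 0.22 ± 0.09 in cortex (difference 0.56 ± 0.13, adjusted p = 0.012). Psat1, an enzyme of serine synthesis, fell in midbrain (-0.27 ± 0.09) and was at 0.17 ± 0.09 in cortex. Its difference of -0.44 lost its call in 10 of the 21 other settings. Among these were the fit without both number 1 arrays of cortex (adjusted p = 0.054) and that of the 12 arrays alone.

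The promoters of 2 of these genes are shown because they hold the letters TGATGNAA, the core of the composite element that ATF4 and its C/EBP partners bind. Stretches come from the 250 bases before the RefSeq start site in build GRCm38.p6, are written 5′ to 3′ on the gene's strand, and carry in capitals each match to TGATGNAA or to the HIF core letters ACGTG or GCGTG on either strand. The Chac1 stretch is chr2:119351029-119351124 on the plus strand, 213 to 118 bases before the start, and the Slc7a11 stretch is chr3:50443633-50443699 on the minus strand, 86 to 20 bases before it.
Chac1: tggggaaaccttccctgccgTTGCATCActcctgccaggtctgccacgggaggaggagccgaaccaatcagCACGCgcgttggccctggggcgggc
Slc7a11: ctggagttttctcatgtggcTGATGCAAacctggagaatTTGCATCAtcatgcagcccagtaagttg
Chac1 held 1 match to TGATGNAA and 1 to the HIF core, and Slc7a11 held 2 matches to TGATGNAA facing each other. Of 32851 promoter windows 3.45% held TGATGNAA and 38.6% held ACGTG or GCGTG. A match is a description of the letters, not a bound site.

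Endoplasmic reticulum chaperones and NRF2 targets, which answer protein folding stress and oxidation, moved less. Of 20 folding genes 5 rose and 1 fell in midbrain and 2 rose in cortex, none of them shared, and the midbrain count was 11 without 3% O2 replicate 2. Xbp1, the transcription factor of the unfolded protein response, rose by 0.22 ± 0.06 in cortex and was at -0.06 ± 0.06 in midbrain. The chaperone gene Hyou1 rose by 0.40 ± 0.09 in midbrain and was at -0.02 ± 0.09 in cortex, and its difference of 0.42 (adjusted p = 0.054) passed with the replicate block (adjusted p = 0.026). Of 22 NRF2 targets 9 rose in each region, 7 of them shared, and the cortex count was 5 without 3% O2 replicate 1 and 6 with the 12 arrays alone. Hmox1, heme oxygenase, rose by 1.11 ± 0.21 in midbrain and 1.22 ± 0.21 in cortex, with a difference interval from -0.75 to 0.52. Nqo1, a quinone reductase, fell in midbrain (-0.81 ± 0.20) and was at 0.01 ± 0.20 in cortex, with adjusted p = 0.099 for the difference and 0.0031 with the replicate block.

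HIF target genes rose in both regions and more of them in midbrain, where rises were more frequent over all tested probe sets as well. Those shares were 11.2% in midbrain and 6.25% in cortex, so a larger count in midbrain is not particular to these lists. Of 40 measured targets outside glycolysis 28 rose and 1 fell in midbrain and 18 rose and 0 fell in cortex, 17 of them shared, with medians of 0.81 and 0.47. The difference was called more positive in midbrain at 7 and more negative at 1, with a median of 0.29. Of 21 glucose uptake and glycolysis genes 13 rose in midbrain and 6 in cortex, all 6 shared, with medians of 0.44 and 0.36, and the difference passed at 3. With the replicate block 10 rose in cortex.

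Adm, the vasodilator peptide adrenomedullin, had separate groups in both regions. It read 8.92, 9.30 and 9.36 at 21% O2 and 11.33, 11.26 and 11.33 at 3% O2 in midbrain. Cortex arrays read 9.95, 10.03 and 9.92, and 11.35, 11.05 and 10.95. Levels at 3% O2 nearly coincided, while the 21% O2 arrays of cortex lay above those of midbrain. The rises were 2.11 ± 0.16 and 1.15 ± 0.16 (difference 0.96 ± 0.23, adjusted p = 0.015). Pfkp, the platelet type phosphofructokinase, rose by 2.50 ± 0.21 in midbrain and 1.08 ± 0.21 in cortex (difference 1.42 ± 0.30, adjusted p = 0.0077).

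The promoter of Adm is shown for its pair of HIF core letters, in capitals, at chr7:110627547-110627627 on the plus strand, 110 to 30 bases before the start.
Adm: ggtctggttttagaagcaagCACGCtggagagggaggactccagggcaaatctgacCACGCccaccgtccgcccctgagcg
Such letters are common, as the share of all windows given above shows.

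Other targets moved in midbrain without a call in cortex. Ndrg1, a stress responsive gene of growth control, read 8.75, 8.96 and 9.09 at 21% O2 and 10.92, 10.22 and 10.93 at 3% O2 in midbrain. The values in cortex were 8.64, 9.43 and 9.27, and 9.59, 8.82 and 8.56. The midbrain groups were separate and the cortex groups overlapped, with each number 1 array on the far side of its group. The rise of 1.75 ± 0.23 in midbrain differed from -0.12 ± 0.23 in cortex (difference 1.88 ± 0.33, adjusted p = 0.0019), and without both number 1 arrays Ndrg1 fell in cortex (-0.66, adjusted p = 0.030). Tfrc, the transferrin receptor that brings iron into cells, rose by 1.05 ± 0.09 in midbrain and was at -0.18 ± 0.09 in cortex (difference 1.23 ± 0.13, adjusted p = 2.9e-05). Eno2, a glycolytic enolase, rose by 0.79 ± 0.14 and was at -0.13 ± 0.14 in cortex (difference 0.92 ± 0.20, adjusted p = 0.011).

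Several classical targets showed no call for the difference with all arrays. Egln3, a prolyl hydroxylase that HIF induces, rose by 1.22 ± 0.21 and 1.09 ± 0.21, with a difference interval from -0.50 to 0.76. Slc16a3, the lactate exporter, rose by 1.38 ± 0.30 and 1.09 ± 0.30 (interval -0.60 to 1.18), and the cortex value was 0.66 (adjusted p = 0.23) without both number 1 arrays. Vegfa, the vascular growth factor, read 11.12, 11.38 and 11.38, and 12.64, 12.52 and 12.62 in midbrain. In cortex it read 10.61, 11.98 and 11.79, and 12.08, 12.06 and 11.91. The midbrain groups were separate, while in cortex 1 array at 21% O2 lay above 1 at 3% O2 and replicate 1 at 21% O2 was low. The rise in midbrain was 1.30 ± 0.23, cortex did not pass (0.55 ± 0.23), and the difference of 0.75 (adjusted p = 0.19) passed without cortex 21% O2 replicate 1 (1.17, adjusted p = 0.00028) or both number 1 arrays (1.20). Slc2a1, Pdk1 and Ldha, which bring glucose in, divert pyruvate from mitochondria and make lactate, rose in midbrain by 1.02 ± 0.20, 0.76 ± 0.23 and 0.53 ± 0.10. In cortex they were at 0.55 ± 0.20, 0.66 ± 0.23 and 0.31 ± 0.10 without a call, and no difference was called. Bnip3, a mitophagy receptor, did not pass in either region with the probe set used here (0.75 ± 0.30 and 0.52 ± 0.30). That probe set rose in midbrain with the replicate block (adjusted p = 0.044). The other Bnip3 probe set changed by 1.00 and 0.52, with no call for the difference (0.48, adjusted p = 0.63).

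The HIF list moved with the number 1 arrays of cortex more than the amino acid list did. Its mean in cortex was 9.10, 9.57 and 9.47 at 21% O2 and 10.07, 9.81 and 9.69 at 3% O2, with replicate 1 lowest in the first group and highest in the second. In midbrain it was 9.30, 9.42 and 9.46, and 10.29, 10.13 and 10.29. Without both number 1 arrays the cortex count was 13 up and 2 down with a median of 0.10, and the difference was called more positive in midbrain at 19 and more negative at 1, with a median of 0.56. Glycolysis then had 2 members up and 1 down in cortex, with a median of 0.22.

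Genes of oxygen sensing moved in both directions in midbrain. Of 12 measured 3 rose and 4 fell in midbrain and 2 fell in cortex, both shared, with medians of -0.04 and 0.01. Hif1a fell in midbrain (-0.39 ± 0.06) and did not pass in cortex (-0.16 ± 0.06), with a difference of -0.22 (adjusted p = 0.15). Epas1, which encodes HIF2 alpha, rose in midbrain (0.71 ± 0.24) and was at 0.18 ± 0.24 in cortex. Hif3a, a family member that HIF1 induces, rose by 1.21 ± 0.15 in midbrain and was at 0.34 ± 0.15 in cortex (difference 0.87 ± 0.22, adjusted p = 0.020). The difference for Hif3a lost its call in 4 of the 21 other settings, with the 12 arrays alone and without midbrain 3% O2 replicate 1 or 3 or cortex 3% O2 replicate 3. The probe set of Mir210, the hypoxia microRNA, did not pass in either (0.11 ± 0.09 and -0.05 ± 0.09). Of 31 respiratory chain genes 3 rose and 1 fell in midbrain and 1 rose and 1 fell in cortex, with no call for the difference. Sdhd, a subunit of complex II, was at 0.30 ± 0.12 and -0.01 ± 0.12, and Ndufb5, a subunit of complex I, at -0.04 ± 0.07 and 0.15 ± 0.07.

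**Figure D3:**
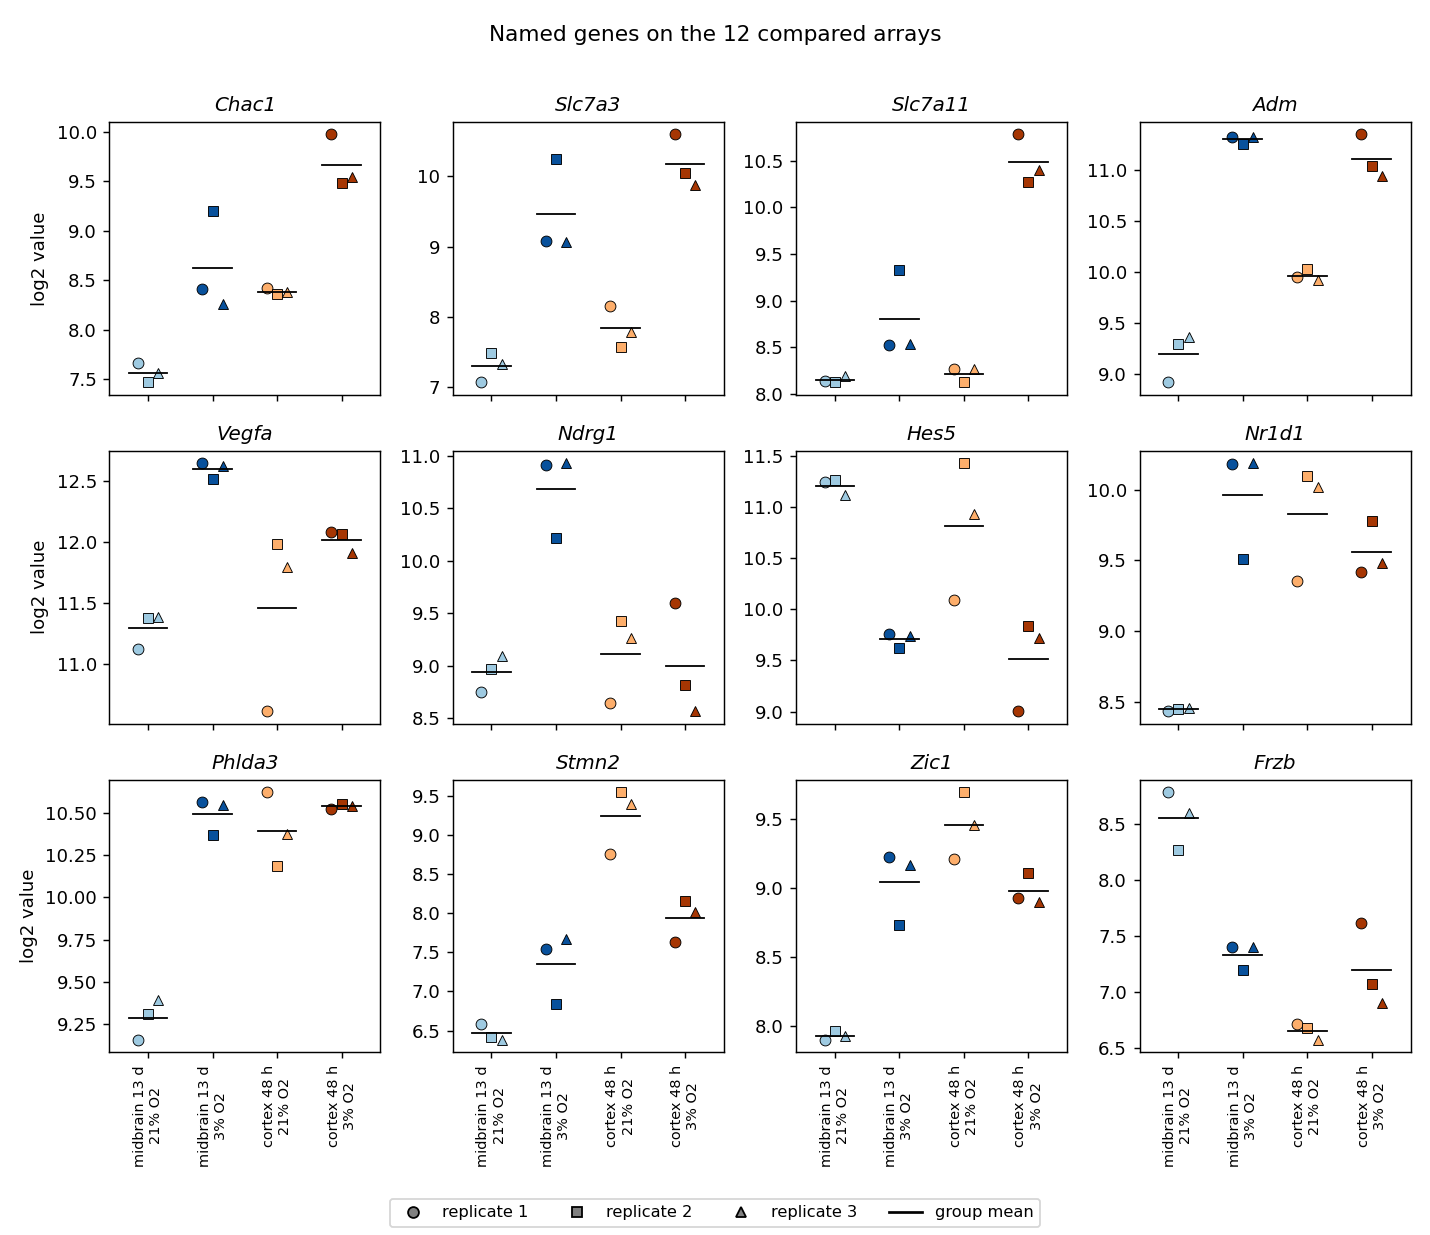
Log2 level (y axis) of 12 genes in each of the 12 arrays, 1 point per array with its replicate number and a bar at the group mean, by region and oxygen level. Chac1 and Slc7a3 rise in both regions by like amounts, Slc7a11 rises most in cortex, and Stmn2 and Zic1 move in opposite directions.

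The 8 genes with the largest smaller rise of the 2 regions were Cd93, Slc7a3, Dhh, Mamdc2, Col12a1, Ctsh, Gpc3 and Ier3. Because they were chosen for rising in both, their rises are a description. A rule on the smaller change also favours genes with like changes in the 2 regions. Their differences, given below, are therefore not independent of the choice. Cd93, a surface glycoprotein known from endothelium and myeloid cells, read 7.16, 7.00 and 7.53, and 10.88, 10.60 and 10.87 in midbrain. Cortex values were 10.05, 8.32 and 9.20, and 10.78, 11.72 and 11.66. The changes were 3.55 ± 0.32 and 2.20 ± 0.32, and the difference of 1.35 had an interval from 0.41 to 2.30 and an adjusted p of 0.082.

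Endothelial genes, a list that includes Cd93, were split. Over the 12 arrays Pecam1, the endothelial adhesion molecule, read 6.26 to 6.46, and Cldn5, Cdh5 and Kdr stayed between 6.25 and 7.05. Of 17 endothelial genes 4 rose in each region, 2 of them shared, with medians of 0.06 in both. The list mean was 6.81 ± 0.05 and 7.21 ± 0.02 in midbrain at 21% and 3% O2, and 6.89 ± 0.10 and 7.15 ± 0.06 in cortex. Emcn, an endothelial sialomucin, rose in midbrain (1.17 ± 0.31) and was at -0.21 ± 0.31 in cortex, and Plvap, of endothelial diaphragms, rose in cortex (0.63 ± 0.11) and was at 0.17 ± 0.11 in midbrain. Microglia genes were flat, with Aif1 at 5.60 to 5.81 and list means between 6.41 and 6.45 in the 4 groups. Of 19 microglia genes 1 passed, P2ry12, a purine receptor, which rose in cortex (0.86 ± 0.16) with replicate values of 6.81, 7.37 and 7.72 against 6.84, 6.14 and 6.35. Its difference of -0.81 (adjusted p = 0.043) was lost in 13 of the 21 other settings. Among these were the replicate block (adjusted p = 0.10), quantile normalization, median centring and the 12 arrays alone. Trem2, a microglial receptor, was at -0.12 ± 0.10 and 0.02 ± 0.10.

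The remaining shared rises differed in how evenly they were shared. Dhh, the ligand desert hedgehog, changed by 1.91 ± 0.22 in midbrain and 1.95 ± 0.22 in cortex, and Gpc3, a heparan sulfate proteoglycan of the cell surface, by 1.71 ± 0.18 and 1.76 ± 0.18. Their difference intervals ran from -0.68 to 0.60 and from -0.59 to 0.49. Ier3, an early response gene, read 7.06, 7.73 and 7.54, and 10.10, 10.10 and 10.12 in midbrain, and 8.10, 8.53 and 8.39, and 10.29, 10.01 and 9.76 in cortex. Its change was larger in midbrain (difference 0.98 ± 0.23, adjusted p = 0.015). Col12a1, a fibril associated collagen, changed by 2.89 ± 0.26 and 1.71 ± 0.26, and the difference of 1.18 (adjusted p = 0.061) passed without both number 1 arrays of cortex (1.76, adjusted p = 0.0006). Mamdc2, a matrix proteoglycan, changed by 2.39 ± 0.24 and 1.71 ± 0.24. Ctsh, the lysosomal protease cathepsin H, read 6.71, 6.60 and 6.48, and 9.40, 7.86 and 7.66 in cortex, with replicate 1 highest at 3% O2 and no overlap. Its cortex change was 1.22 in place of 1.71 without both number 1 arrays, and its difference was 0.68 (adjusted p = 0.010) in place of 0.19.

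Growth factor feedback and insulin-like growth factor genes also rose in both. Of 24 genes that answer or restrain receptor kinase signalling 12 rose and 1 fell in midbrain and 10 rose in cortex, 9 of them shared, with medians of 0.29 and 0.33. The cortex count was 17 without 21% O2 replicate 1 and 6 with the 12 arrays alone, and the difference was then more negative in midbrain at 4 and at 1, as it was at 1 with all arrays. Spred2, an inhibitor of the RAS pathway, rose by 0.79 ± 0.07 and 0.34 ± 0.07 (difference 0.44 ± 0.10, adjusted p = 0.0082), while its other probe set had no call for the difference (0.31, adjusted p = 0.30). Etv4, a transcription factor downstream of fibroblast growth factors, rose in midbrain (1.11 ± 0.09) and was at 0.20 ± 0.09 in cortex (difference 0.91 ± 0.13, adjusted p = 0.00029). Of 10 genes of the insulin-like growth factor axis 6 rose in midbrain and 5 in cortex, all 5 shared. Irs2, an adaptor of the insulin receptor, rose by 0.74 ± 0.06 and 0.28 ± 0.06 (difference 0.46 ± 0.08, adjusted p = 0.0015). Igfbp2, a binding protein, rose in midbrain by 0.86 ± 0.13 and was at 0.35 ± 0.13 in cortex. The cortex change of Igfbp2 passed with the replicate block (adjusted p = 0.0072), which assumes a pairing by number that the labels do not give.

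Notch pathway genes were among the shared falls. Of 20 Notch pathway genes 8 fell and 2 rose in midbrain and 9 fell and 2 rose in cortex, with 6 falls and both rises shared. Among the receptors, Notch1 and Notch2 fell in cortex by 0.61 (SE 0.12) and 0.50 (SE 0.10) and did not pass in midbrain, at 0.15 ± 0.12 and 0.17 ± 0.10. The difference passed for both, at 0.76 ± 0.16 (adjusted p = 0.0083) and 0.67 ± 0.15 (adjusted p = 0.0094). They were the 2 members with a called difference with all arrays. Without both number 1 arrays of cortex the difference was more positive in midbrain at 4 members and more negative at 2.

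The targets of the pathway did not move as 1 group. Hes1, a repressor that Notch induces, and the ligand Jag1 were the shared rises, at 0.96 and 0.93 for Hes1 and 0.53 and 1.02 for Jag1, both looked up after the counts were seen. Hes5, a repressor that Notch induces in neural stem cells, read 11.24, 11.26 and 11.12, and 9.75, 9.62 and 9.74 in midbrain. In cortex it read 10.09, 11.43 and 10.93, and 9.00, 9.83 and 9.72. The 3% O2 arrays lay below all 21% O2 arrays of their region, and the changes of -1.50 ± 0.23 and -1.30 ± 0.23 differed by -0.21 (interval -0.87 to 0.46). Hey2, a related repressor, fell by 1.17 (SE 0.28) in midbrain and by 1.65 (SE 0.28) in cortex, and its difference of 0.48 (adjusted p = 0.58) passed without cortex 21% O2 replicate 1 (0.96, adjusted p = 0.017) or both number 1 arrays (0.92, adjusted p = 0.030). Mfng, a glycosyltransferase that modifies Notch receptors, fell by 1.32 (SE 0.10) and by 1.15 (SE 0.10), with an interval of the difference from -0.45 to 0.13. Id4, an inhibitor of basic helix-loop-helix factors, fell by 1.29 (SE 0.29) and by 1.44 (SE 0.29), and the difference of 0.15 was 0.68 without both number 1 arrays (adjusted p = 0.0042). Of the 20 genes of bone morphogenetic protein signalling that include Id4, 4 rose and 2 fell in midbrain and 1 rose and 1 fell in cortex. Bmp7, a ligand of that pathway, rose in midbrain (1.17 ± 0.15) and was at 0.18 ± 0.15 in cortex (difference 0.98 ± 0.22, adjusted p = 0.0098), and Smad9, a transducer, rose in midbrain (0.44 ± 0.10) and was at 0.07 ± 0.10 in cortex. Without both number 1 arrays the difference passed at 7 of these 20 genes in place of 1.

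The 8 genes with the largest smaller fall of the 2 regions were Abca1, Igsf11, Abat, Cyp4f15, Naaa, Adcy8, Hes5 and Gjc3, again a description by choice. This choice too favours like changes, so their differences are not independent of it. Abca1, the cholesterol exporter, read 10.65, 10.37 and 10.48, and 8.62, 7.93 and 8.66 in midbrain, and 8.11, 9.43 and 9.17, and 6.93, 7.38 and 7.26 in cortex. The changes of -2.09 ± 0.24 and -1.72 ± 0.24 left no overlap in either region, and their difference of -0.37 had an interval from -1.08 to 0.33. Abat, which breaks down the transmitter GABA, changed by -1.48 ± 0.15 and -1.44 ± 0.15 (interval -0.48 to 0.40), and Adcy8, an adenylate cyclase driven by calcium, by -1.33 ± 0.12 and -1.34 ± 0.12 (interval -0.36 to 0.37). Naaa, a lysosomal amidase, changed by -1.85 ± 0.16 and -1.33 ± 0.16, Cyp4f15, a fatty acid hydroxylase, by -1.90 ± 0.26 and -1.43 ± 0.26, and Igsf11, an adhesion molecule, by -1.66 ± 0.22 and -1.50 ± 0.22. None of these 6 had a call for the difference. Gjc3, a gap junction gene of oligodendrocytes, read 11.46, 10.16 and 10.79, and 8.36, 10.09 and 10.08 in cortex, so that its cortex fall rested on replicate 1. Without both number 1 arrays its cortex change was -0.39 (adjusted p = 0.34) and its difference, -1.38 with all arrays, was -2.28 (adjusted p = 0.0001).

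**Figure D4:**
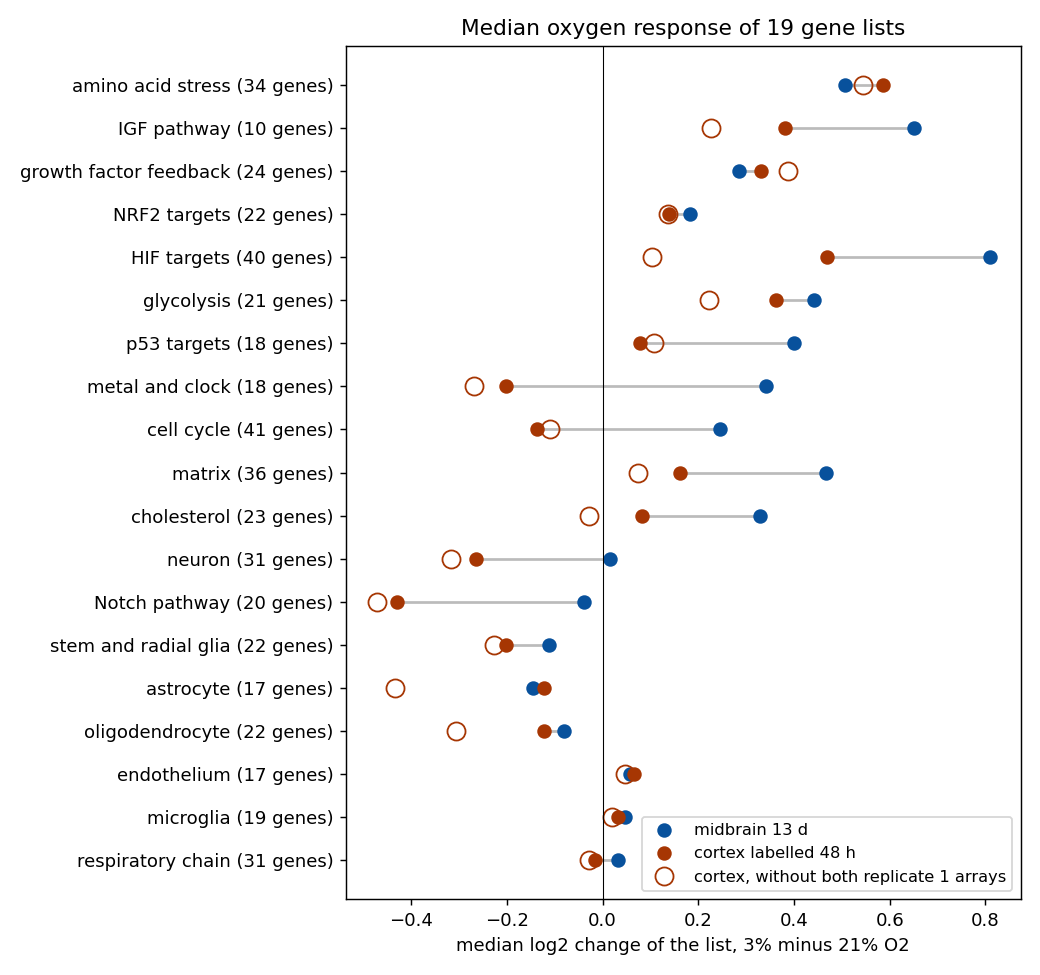
Median oxygen response (log2, x axis) of the measured members of 19 gene lists, midbrain 13 d beside cortex labelled 48 h, with hollow points for cortex without both number 1 arrays. The amino acid list has medians of 0.51 and 0.59, while the HIF list has 0.81 and 0.47, and 0.10 for the hollow point.

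The 10 most positive differences named by rule were Apod, Stmn2, Adamts14, Ndrg1, Meg3, Nr1d1, Slc6a17, Nxph4, Zic1 and Zic5. Adamts14, a protease that matures collagen, read 7.35, 7.53 and 7.46, and 10.32, 9.51 and 10.28 in midbrain, and 8.89, 7.78 and 8.21, and 9.04, 8.71 and 8.80 in cortex. The midbrain groups were separate and the cortex groups overlapped (2.59 ± 0.21 and 0.55 ± 0.21, difference 2.04 ± 0.29, adjusted p = 0.00031). Apod, a lipid carrier secreted by glia and fibroblasts, rose by 2.43 ± 0.46 and was at -0.09 ± 0.46 (difference 2.53 ± 0.65, adjusted p = 0.024), the largest difference with the widest error of the 10. Its call was lost in 5 settings that each left out 1 array, namely midbrain 3% O2 replicate 1 or 3, midbrain 21% O2 replicate 1, cortex 3% O2 replicate 2 or cortex 21% O2 replicate 3. Meg3, an imprinted noncoding RNA, rose by 1.57 ± 0.20 and was at -0.25 ± 0.20 (difference 1.82 ± 0.28). Nxph4, a secreted ligand of neurexins, rose by 2.10 ± 0.24 and was at 0.45 ± 0.24 (difference 1.64 ± 0.34). Slc6a17, a vesicular amino acid transporter of neurons, rose by 1.32 ± 0.19 and was at -0.43 ± 0.19 (difference 1.75 ± 0.27).

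A mixed list of metal binding and clock genes rose in part in midbrain. Of its 18 members 9 rose in midbrain, 3 rose and 2 fell in cortex, and the difference was more positive in midbrain at 6. Looked up after the counts were seen, those 6 were the clock genes Per1, Nr1d1, Nr1d2, Dbp, Hlf and Arntl. Nr1d1, the circadian repressor REV-ERB alpha, read 8.43, 8.44 and 8.46, and 10.19, 9.51 and 10.19 in midbrain. In cortex it read 9.36, 10.10 and 10.02, and 9.42, 9.78 and 9.48. The midbrain groups were apart while the cortex groups overlapped, at 1.52 ± 0.17 and -0.27 ± 0.17 (difference 1.78 ± 0.24, adjusted p = 0.00018). Without cortex 21% O2 replicate 1 Nr1d1 fell in cortex (-0.50, adjusted p = 0.021). Hlf, a transcription factor of the clock output family, rose by 1.58 ± 0.13 and was at 0.05 ± 0.13 (difference 1.53 ± 0.19, adjusted p = 8.6e-05). Without both number 1 arrays, 2 of the 18 rose and 7 fell in cortex and the difference passed at 10.

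The promoter of Nr1d1 is shown because this gene is among the 10 most positive differences and its window holds HIF core letters, in capitals, at chr11:98775380-98775592 on the minus strand, 215 to 3 bases before the start.
Nr1d1: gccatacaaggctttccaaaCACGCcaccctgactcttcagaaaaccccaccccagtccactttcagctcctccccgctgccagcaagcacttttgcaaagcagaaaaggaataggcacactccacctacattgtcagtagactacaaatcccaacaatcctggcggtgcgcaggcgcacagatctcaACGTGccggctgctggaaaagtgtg
The letters ACGTG are also part of the E box CACGTG that clock factors bind, but in this stretch they follow an A, so it does not hold CACGTG.

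Targets of p53, the DNA damage and stress factor, rose mostly in midbrain. Of 18 measured, 11 rose and 1 fell in midbrain and 3 rose and 1 fell in cortex, with medians of 0.40 and 0.08. The difference was more positive in midbrain at 7 and more negative at 0, and at 8 without both number 1 arrays. Phlda3, an inhibitor of AKT that p53 induces, read 9.16, 9.31 and 9.39, and 10.56, 10.37 and 10.54 in midbrain, and 10.62, 10.19 and 10.37, and 10.52, 10.55 and 10.54 in cortex. Its midbrain values at 3% O2 lay within the range of the 6 cortex arrays, and the difference was 1.06 ± 0.12 (adjusted p = 6.1e-05). Eda2r, a death domain receptor of the same set, read 8.54, 8.68 and 8.73, and 9.81, 9.79 and 9.88 in midbrain, and 9.70 to 10.26 over the 6 cortex arrays (difference 1.05 ± 0.18, adjusted p = 0.0016).

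Cell cycle genes rose in part in midbrain, with 1 call in cortex. Of 41 measured 15 rose and 0 fell in midbrain and 0 rose and 1 fell in cortex, with medians of 0.25 and -0.14. The difference was more positive in midbrain at 8 and more negative at 0, and at 16 with the replicate block, where 7 fell in cortex. The difference passed at 4 with the 12 arrays alone. Without cortex 21% O2 replicate 1 it passed at 6, and in cortex 1 rose and 0 fell with a median of -0.03. E2f1, the transcription factor that starts replication genes, rose by 0.89 ± 0.14 and was at -0.15 ± 0.14 (difference 1.04 ± 0.19, adjusted p = 0.0028). Cenpf, a kinetochore protein, rose by 0.33 ± 0.11 and was at -0.32 ± 0.11 (difference 0.65 ± 0.15, adjusted p = 0.015). Mki67, the proliferation marker, was at 0.24 ± 0.10 and -0.18 ± 0.10, and its difference of 0.43 had an interval from 0.12 to 0.74 and an adjusted p of 0.094, or 0.049 with the replicate block.

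Matrix genes rose in midbrain, and some of them differed between the regions. Of 36 measured 20 rose and 3 fell in midbrain and 5 rose and 1 fell in cortex, 4 of the rises shared, with the difference more positive in midbrain at 5. Over all tested probe sets 11.2% rose in midbrain and 6.25% in cortex, so the counts of the 2 regions start from unequal backgrounds. Mmp14, a membrane bound metalloprotease, rose by 1.59 ± 0.12 and 0.68 ± 0.12 (difference 0.91 ± 0.17, adjusted p = 0.0030). Lama5, a basement membrane laminin, rose by 0.78 ± 0.10 and was at -0.06 ± 0.10 (difference 0.83 ± 0.15, adjusted p = 0.0019). Of 20 genes of the transforming growth factor beta pathway 6 rose and 3 fell in midbrain and 4 rose and 3 fell in cortex, or 10 and 7 rose with the replicate block. Falls made up 12.7% of all tested probe sets in midbrain and 6.08% in cortex. Without both number 1 arrays of cortex the difference was more positive at 5 members and more negative at 3. Of the 2 members with a called difference with all arrays, Lrrc32, which anchors latent TGF-beta, rose by 2.46 ± 0.11 and 1.46 ± 0.11 (difference 1.00 ± 0.15, adjusted p = 0.00052). Tgfb3, a ligand, fell in midbrain (-0.80 ± 0.10) and was at -0.14 ± 0.10 in cortex (difference -0.67 ± 0.14, adjusted p = 0.0060).

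Mural and meningeal markers moved along with the matrix genes. Of 20 measured 8 rose and 1 fell in midbrain and 0 passed in cortex, and the list mean went from 6.75 ± 0.02 to 7.19 ± 0.12 in midbrain and from 6.61 ± 0.08 to 6.65 ± 0.24 in cortex. Their part in the matrix result was not tested. Postn, a matrix protein of fibroblasts, read 6.18, 6.15 and 6.17, and 8.62, 8.10 and 8.76 in midbrain, and 6.19, 5.76 and 5.91, and 7.91, 6.04 and 6.34 in cortex. It rose in midbrain (2.33 ± 0.36), cortex rested on replicate 1 (0.81 ± 0.36), and the difference of 1.52 (adjusted p = 0.082) was 1.97 without both number 1 arrays (adjusted p = 0.0027). Acta2, smooth muscle actin, rose by 1.02 ± 0.29 in midbrain and was at -0.54 ± 0.29 in cortex (difference 1.56 ± 0.41, adjusted p = 0.027), a call lost in 10 of the 21 other settings.

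Sterol and fatty acid genes rose in midbrain. Of 23 measured 12 rose and 2 fell in midbrain and 1 rose and 1 fell in cortex. Fasn, fatty acid synthase, read 11.74, 11.76 and 11.78, and 12.28, 12.21 and 12.32 in midbrain, and 12.15, 12.15 and 12.18, and 12.01, 12.02 and 12.12 in cortex. The rise of 0.51 ± 0.05 set against -0.11 ± 0.05 gave a difference of 0.62 ± 0.07 (adjusted p = 5.1e-05), the single call of the list. Srebf2, the master regulator of cholesterol synthesis, rose by 0.30 ± 0.07 and was at 0.01 ± 0.07, and without both number 1 arrays the difference passed at 10 of the 23 genes.

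Most of the strongest negative differences were falls in midbrain. The 10 named by rule were Gabbr2, Frzb, Rnd3, Clic5, Slc7a11, Actc1, Socs2, Arc, Enpp3 and Cdh8. Gabbr2, a subunit of the GABA-B receptor, read 10.99, 10.63 and 10.85, and 8.89, 8.17 and 8.87 in midbrain, and 8.76, 9.77 and 9.49, and 9.35, 8.62 and 8.82 in cortex. Cortex replicates 2 and 3 were also lower at 3% O2, with replicate 1 the other way. The difference was -1.77 ± 0.30 (adjusted p = 0.0016), and without both number 1 arrays Gabbr2 fell in cortex too (-0.91, adjusted p = 0.0013). Cdh8, a cadherin of neural circuits, read 8.78, 8.78 and 8.80, and 7.09, 6.98 and 7.15 in midbrain. Its replicates lay close together. It fell by 1.71 (SE 0.08) in midbrain and by 0.26 (SE 0.08) in cortex (difference -1.45 ± 0.11, adjusted p = 7.3e-07). Rnd3, a GTPase that loosens the actin skeleton, fell by 1.67 (SE 0.17) and was at 0.05 ± 0.17, and Actc1, cardiac actin, fell by 2.09 (SE 0.19) and was at -0.47 ± 0.19. Socs2, a feedback inhibitor of cytokine signalling, fell by 1.94 (SE 0.18) and was at -0.38 ± 0.18, while its other probe set had no call for the difference (-0.28, adjusted p = 0.21). Enpp3, an ectoenzyme, fell by 1.07 (SE 0.14) and was at 0.42 ± 0.14 in cortex. That cortex change passed with the replicate block (adjusted p = 0.0039), which assumes a pairing by number.

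Larger rises in cortex were fewer, with 98 called in cortex alone and 9 called in both regions. Clic5, a chloride channel protein linked to the cytoskeleton, read 6.61, 6.68 and 6.59, and 7.24, 7.42 and 7.29 in midbrain, and 7.44, 6.47 and 6.84, and 9.98, 8.65 and 9.06 in cortex (0.69 ± 0.23 and 2.32 ± 0.23, difference -1.63 ± 0.32, adjusted p = 0.0050). Cortex replicate 1 was the highest of its group at both oxygen levels. Arc, an activity regulated gene, read 7.45 to 7.83 over all midbrain arrays, and 8.93, 7.59 and 7.95, and 9.94, 9.02 and 9.68 in cortex. It rose in cortex (1.39 ± 0.23) and was at -0.11 ± 0.23 in midbrain (difference -1.50 ± 0.33, adjusted p = 0.0098). The fit of the 12 arrays alone gave no call for the difference of Clic5 (adjusted p = 0.068) or Arc (adjusted p = 0.092).

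Opposite movements are shown by the genes with the largest pairs of called changes. Stmn2, a microtubule regulator of growing axons, read 6.59, 6.42 and 6.38, and 7.55, 6.83 and 7.67 in midbrain. In cortex it read 8.76, 9.55 and 9.40, and 7.64, 8.16 and 8.02. It rose by 0.89 ± 0.18 in midbrain and fell by 1.30 (SE 0.18) in cortex (difference 2.19 ± 0.26, adjusted p = 6.1e-05). The regions lay nearer to each other at 3% O2, and the groups overlapped in neither region.

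Zic1, a zinc finger factor of the dorsal neural tube, read 7.90, 7.96 and 7.92, and 9.23, 8.73 and 9.17 in midbrain, and 9.21, 9.70 and 9.46, and 8.93, 9.11 and 8.90 in cortex. The rise of 1.12 ± 0.13 and the fall of 0.48 (-0.48 ± 0.13, adjusted p = 0.018) gave a difference of 1.59 ± 0.18 (adjusted p = 5.1e-05). Zic2 followed, with 0.91 ± 0.12 and -0.61 ± 0.12 (difference 1.52 ± 0.16, adjusted p = 3.6e-05), and 1 probe set of Zic5 with 1.05 ± 0.17 and -0.52 ± 0.17. The cortex fall of Zic5 was at the threshold (adjusted p = 0.0497) and was lost without both number 1 arrays (adjusted p = 0.085), while the other Zic5 probe set was at 0.01 and -0.17 with no call. Zic4, looked up after these values were seen, had 2 probe sets with differences of 0.34 and -0.02, and neither was called. The cortex calls of Zic1 and of the glutamate receptor gene Gria1 were lost without 3% O2 replicate 1 (adjusted p = 0.066 and 0.12), at -0.45 and -0.46, whereas both differences kept their calls in every setting tried for them.

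The promoter of Zic1 is shown because its 2 HIF core matches overlap as 1 palindrome, in capitals, at chr9:91365841-91365886 on the minus strand, 118 to 73 bases before the start.
Zic1: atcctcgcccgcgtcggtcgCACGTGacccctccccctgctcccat
The same 6 letters form an E box, and the genes with opposite calls were not searched as a group.

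Gria1 rose by 1.08 ± 0.15 in midbrain and fell by 0.47 (SE 0.15) in cortex (difference 1.55 ± 0.21, adjusted p = 0.00026). Mob3b, a kinase adaptor, rose by 0.88 ± 0.12 and fell by 0.53 (SE 0.12) (difference 1.42 ± 0.17), and its other probe set differed by 0.98 with a call as well. In the other orientation Frzb, a secreted antagonist of Wnt ligands, read 8.78, 8.26 and 8.60, and 7.40, 7.20 and 7.40 in midbrain, and 6.72, 6.68 and 6.58, and 7.62, 7.07 and 6.91 in cortex. It fell by 1.21 (SE 0.17) and rose by 0.54 ± 0.17 (difference -1.75 ± 0.24, adjusted p = 0.00025), although the cortex rise was 0.36 (adjusted p = 0.22) without both number 1 arrays. Igsf10 fell by 0.35 (SE 0.09) and rose by 0.67 ± 0.09 (difference -1.01 ± 0.13), and its 3 probe sets all had calls of that direction for the difference. Pax7, a midbrain and dorsal patterning factor, fell by 0.59 (SE 0.10) and rose by 0.40 ± 0.10, the latter being 0.20 (adjusted p = 0.087) without both number 1 arrays. Entpd1, an ATP hydrolase of the cell surface, fell by 0.55 (SE 0.10) and rose by 0.42 ± 0.10, or 0.32 (adjusted p = 0.056) without those arrays. Kctd12b and Lyplal1 had differences of -0.95 ± 0.15 and -0.75 ± 0.11.

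Neuron genes as a list responded less negatively in midbrain. Of 31 measured 6 rose and 5 fell in midbrain and 1 rose and 12 fell in cortex, with 4 falls shared and 1 gene opposite, and the difference was more positive in midbrain at 10 and more negative at 2. With the 12 arrays alone 1 rose and 8 fell in cortex, and the difference was more positive at 5 and more negative at 1. Without both number 1 arrays 3 rose and 17 fell in cortex, and the difference passed at 13 and 2. The list mean was 7.77 ± 0.03 and 7.77 ± 0.07 in midbrain at 21% and 3% O2, and 8.43 ± 0.14 and 8.10 ± 0.14 in cortex. Midbrain thus started close to the array medians, and whether this left less room to fall was not tested. Syt1, the calcium sensor of synaptic vesicles, read 7.27, 6.97 and 7.46, and 7.47, 7.16 and 7.41 in midbrain, and 9.27, 9.17 and 9.28, and 8.30, 8.29 and 8.37 in cortex (difference 1.04 ± 0.13, adjusted p = 0.00013). It fell in cortex by 0.92 (SE 0.09) toward the level of midbrain, where it was flat. Tubb3, neuronal tubulin, fell in both, by 0.66 (SE 0.20) and by 0.73 (SE 0.20). Of 15 proneural genes 3 fell in midbrain and 5 in cortex, 2 of them shared. Neurog2, a proneural factor, fell in midbrain (-0.66 ± 0.06) and was at -0.10 ± 0.06 in cortex (difference -0.56 ± 0.08, adjusted p = 0.00053), and Myt1, a neural zinc finger gene, fell by 1.65 (SE 0.19) and by 0.80 (SE 0.19), with adjusted p = 0.063 for the difference and 0.0024 with the replicate block.

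Stem and radial glia genes fell in cortex in part. Of 22 measured 2 rose and 3 fell in midbrain and 1 rose and 8 fell in cortex, with medians of -0.11 and -0.20. In cortex 9 fell without both number 1 arrays and 7 without 3% O2 replicate 1 alone, while the midbrain falls, in a fit that shares its error, were 7 and 5. The difference was more positive in midbrain at 2 members, and at 4 without both number 1 arrays. Sox2 did not pass in either region, at -0.07 ± 0.07 and -0.09 ± 0.07 with a difference interval from -0.18 to 0.23, and Nes, nestin, was at -0.25 ± 0.16 and -0.10 ± 0.16. Gli3, a hedgehog effector, fell in cortex by 0.61 (SE 0.08) and was at -0.11 ± 0.08 in midbrain (difference 0.50 ± 0.12, adjusted p = 0.014). Fgfr1, a growth factor receptor, rose by 0.57 ± 0.07 in midbrain and was at 0.13 ± 0.07 in cortex (difference 0.44 ± 0.09, adjusted p = 0.0086). Glial lists depended on the number 1 arrays of cortex. Of 22 oligodendrocyte lineage genes 2 rose and 4 fell in midbrain and 3 rose and 2 fell in cortex, with no called difference. Without both number 1 arrays the falls were 9 and 10, and the difference passed at 4 upward and 3 downward. With all arrays, 11.2% of all tested probe sets rose and 12.7% fell in midbrain, and 6.25% rose and 6.08% fell in cortex. The stem and oligodendrocyte counts are to be read beside these shares. Gpr17, a receptor of oligodendrocyte precursors, fell in midbrain (-2.18 ± 0.42), and cortex read 9.22, 11.54 and 11.28, and 9.20, 10.49 and 10.35. Its difference of -1.51 (adjusted p = 0.15) passed with the replicate block (adjusted p = 0.0045). Olig2, the lineage factor, read 11.79 to 12.43 over the 12 arrays and did not pass, with a difference interval from -0.51 to 0.34, and Tmem100 fell in midbrain (-0.52 ± 0.19) and was at 0.18 ± 0.19 in cortex.

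Of 17 astrocyte genes 1 rose and 2 fell in midbrain and 3 fell in cortex, and without both number 1 arrays 8 and 9 fell and the difference was more positive in midbrain at 5. Gfap, the astrocyte filament, fell in cortex (-1.19 ± 0.35), where the 21% O2 arrays read 6.06, 8.14 and 8.01, and was at -0.74 ± 0.35 in midbrain. Its difference was 0.45 with all arrays and 1.08 (adjusted p = 0.012) without both number 1 arrays. Itih3 fell in midbrain (-0.16 ± 0.05) but not with the replicate block (adjusted p = 0.056), and Gjb2 passed in neither region. Of 15 interferon genes 1 fell in midbrain and 2 rose in cortex. Beside these astrocyte and interferon counts, 11.2% of all tested probe sets rose and 12.7% fell in midbrain. In cortex 6.25% rose and 6.08% fell. Ddx58, the sensor RIG-I, rose in cortex (0.34 ± 0.10) and was at -0.10 ± 0.10 in midbrain, and Ifit2 was at 0.26 ± 0.10 and -0.17 ± 0.10.

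Forebrain and midbrain identity genes had no more than 4 calls in any direction. Of 12 forebrain genes 1 fell in midbrain and 3 in cortex, where 2 fell without 3% O2 replicate 1. Of 18 midbrain genes 4 fell in midbrain and 1 rose and 1 fell in cortex, where without that array 0 rose and 1 fell. Lhx2, a cortical patterning factor, fell in cortex (-1.13 ± 0.28) with values of 9.81, 10.61 and 10.41, and 8.03, 9.76 and 9.65. Replicate 1 was the lowest of both groups, and every 3% O2 array lay below every 21% O2 array. Cux1 fell in cortex by 0.20 (SE 0.04) and En1, of the midbrain, did not pass in either region (0.07 ± 0.23 and 0.56 ± 0.23). Gata3 fell in midbrain by 0.38 (SE 0.11), and its difference of -0.51 (adjusted p = 0.044) was lost in 9 of the 21 other settings. Among these were the fit without cortex 3% O2 replicate 1 (adjusted p = 0.096) and that of the 12 arrays alone. Of 4 sex-linked genes 0 passed, with Kdm5d at -0.65 ± 0.27 and 0.37 ± 0.27 and Eif2s3y at -0.28 ± 0.28 and 0.30 ± 0.28.

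**Figure D5:**
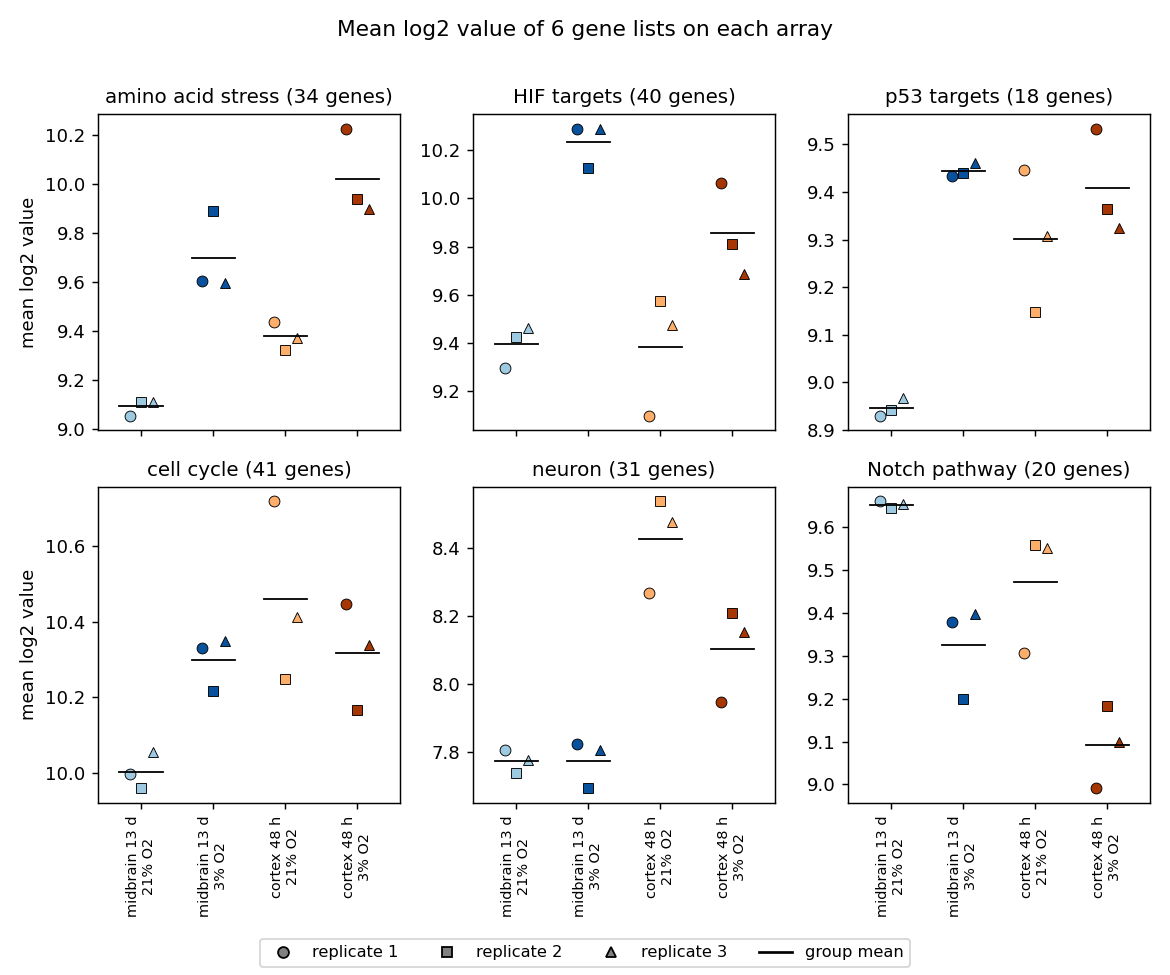
Mean log2 level (y axis) of 6 gene lists in each of the 12 arrays, 1 point per array with its replicate number, by region and oxygen level. Cortex replicate 1 is lowest at 21% O2 (9.10) and highest at 3% O2 (10.07) for the HIF list, while the p53 list goes from 8.93 to 8.97 up to 9.43 to 9.46 in midbrain.

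Promoters of the genes named for their size were searched for the same letters. Of the 10 genes with the most positive differences 7 had a window in the table and 4 of them held ACGTG or GCGTG (Adamts14, Nr1d1, Slc6a17 and Zic1), and 0 held TGATGNAA. Of the 10 with the most negative differences 8 had a window, 2 held the HIF core (Cdh8 and Rnd3) and 1, Slc7a11, held TGATGNAA. Among the shared rises 2 of 3 windows held the HIF core (Gpc3 and Ier3), and among the shared falls 2 of 6 did (Abca1 and Hes5), with TGATGNAA in Gjc3. Among all genes with a window 41.5% held ACGTG or GCGTG and 3.91% held TGATGNAA. The windows of the named genes are few and these shares are descriptions.

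The shared genes were followed into the other cultures of the series, midbrain at 48 h and cortex labelled 13 d, whose neuron list means at 21% O2 were 10.77 ± 0.03 and 10.59 ± 0.02 (SD, n = 3). Of the 856 shared rises 20 (2.34%) also rose in midbrain 48 h, where 0.701% of all tested probe sets rose, and 42 (4.91%) rose in cortex labelled 13 d, where 0.543% did. Of the 827 shared falls 4 (0.484%) fell in midbrain 48 h, where 0.491% of all tested did, and 3 (0.363%) fell in cortex labelled 13 d, where 0.0641% did. Of the 34 amino acid and stress genes 0 passed in midbrain 48 h and 2 (Shmt2 and Stc1) rose in cortex labelled 13 d, with Slc7a3 at 0.55 and 0.24, Chac1 at -0.18 and 0.02 and Atf4 at -0.26 and 0.09 in the 2 cultures. Of the 40 HIF targets 8 and 19 rose in these cultures, with Adm at 1.02 (adjusted p = 0.0027) and 1.89 (adjusted p = 2.7e-06) and Egln3 at 1.12 and 2.44. Slc16a3 rose by 2.50 and 4.32 there, more than the 1.38 and 1.09 of the cultures compared here, a difference that was not tested here.

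Where the responses differed, the regions were nearer to each other at 3% O2 more often than not. Of the 740 probe sets with the more positive difference 58.4% had a smaller gap between the region means at 3% than at 21% O2, as did 58.0% of the 800 with the more negative one and 51.6% of all tested. The median gap went from 0.35 to 0.26 log2 units, from 0.29 to 0.21, and from 0.11 to 0.10 over all. The gaps include whatever the array sets add to levels and are given without a test.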

How the data were processed

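Per the labels, each RNA sample was turned into biotinylated cDNA and run on 1 mouse whole-transcript array. The deposited table holds log2 values of 28856 probe sets on 24 arrays, which the authors normalized by a method not given in the sources used here. Arrays have no read depth, and these values do not show signal over background.

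A linear model of 8 group means over the 24 arrays was fitted with limma 3.58.1 (R 4.3.3), leaving 16 residual degrees of freedom, and moderated with eBayes. Two-sided p-values were adjusted by Benjamini-Hochberg over the 23410 probe sets with a gene symbol, with a threshold of 0.05. Of these 21789 have 1 symbol (19938 genes) and 1621 several, and 5446 further probe sets are unnamed here. Where a listed gene has several probe sets, lists and their medians use that of highest mean level. Some list members were not analysed here.

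Genes were named by rule: the 10 most positive and 10 most negative called differences, the 8 largest shared rises and falls by the smaller change, the 6 largest opposite pairs each way, per list the 2 members whose difference had the smallest p, and a panel. The comparison, rule and lists were chosen with earlier results of these data known. Omitting arrays for the lists was added after the data were seen, as were their scaling, block and 12-array settings.

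Deviations of same-numbered arrays at 3% and 21% O2 correlated at 0.12, 0.42 and 0.31 in midbrain 13 d and at 0.28, 0.42 and -0.04 in cortex. In midbrain, 3% O2 array 1 correlated at 0.16 with 21% O2 array 3, above its own number. In cortex, 3% O2 array 3 correlated at 0.02 with 21% O2 array 1, also above its own number. This check, which rests on the data and not the labels, does not settle whether arrays are paired by number. The replicate block pairs them by number in every culture. The closest pair of replicates had an SD of differences of 0.0904 and was kept as 2 arrays. The fit was tested on simulated arrays. Promoters are RefSeq windows of GRCm38.p6, searched over 250 bases before the start. Pandas 2.3.3 and matplotlib 3.10.9 made summaries and plots.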

Additional observations from a re-analysis of the deposited data

Results flagged for a closer look

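The oxygen response differed between midbrain 13 d and cortex labelled 48 h at 1540 of 23410 tested probe sets (limma, adjusted p under 0.05). Genes whose responses passed in opposite directions gave differences of 2.19 for Stmn2, 1.59 for Zic1, 1.57 for Zic5, 1.55 for Gria1, 1.52 for Zic2 and 1.42 for Mob3b, with the rise in midbrain. With the rise in cortex they were -1.75 for Frzb, -1.01 for Igsf10, -0.99 for Pax7, -0.97 for Entpd1, -0.95 for Kctd12b and -0.75 for Lyplal1. Of the 5446 probe sets without a gene name here, 144 (2.64%) had a called difference when all probe sets were tested, 36 more positive and 108 more negative in midbrain.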

How the results depend on the processing

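The 1540 called differences numbered 811 with the 12 arrays alone, 6441 with array weights, 2906 without both number 1 arrays of cortex, and 833 to 2802 with 1 array left out. Among those, the counts were 833, 938 and 987 without midbrain 3% O2 replicates 1 and 3 and 21% O2 replicate 1, and 999 and 2802 without cortex 21% O2 replicates 3 and 1. Shared rises (856) were 1430 with array weights and 133 when each region's 6 arrays were fitted alone. Shared falls (827) were 1725, 114 and, with 1 array left out, 528 to 1089, the lowest without cortex 21% O2 replicate 3. Opposite calls (66) were 43 with the 12 arrays alone, 638 with array weights, 113 with the replicate block, 210 without both number 1 arrays, 4 with 6 arrays alone and 41 to 230 with 1 array left out. The extremes came without cortex 21% O2 replicates 3 and 1, and without midbrain 3% O2 replicate 2 the count was 105. The cortex response (2886) was 6299 with array weights, 311 with 6 arrays alone and 1725 to 4210 with 1 array left out, the lowest again without cortex 21% O2 replicate 3. The midbrain response (5584) was 9494 with array weights and 6700 with 6 arrays alone. The count thus rose in midbrain and dropped in cortex with the same number of arrays. Pairs of replicates had SDs of differences of 0.13 to 0.337 in the cortex groups and 0.0904 to 0.205 in the midbrain 13 d groups. The main fit shares its error estimate between the cultures. The causes of these changes in count were not tested. With the replicate block the differences numbered 2027, and 1361 of the 1540 were kept. In no setting did a called difference change sign. More positive differences made up 48.1% of calls, and the shares were 43.3% with the 12 arrays alone, 51.7% after quantile normalization, 51.2% after median centring and 55.4% without both number 1 arrays. Of the named genes with a called difference 44 of 60 kept it in all 21 other settings. The number of arrays, the shared error estimate and the unknown normalization limit the small differences.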
